A study of Mus musculus with 45 samples.

Results

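The genes of the cytosolic ribosomal proteins were followed in 2 mouse tumour lines, in cells given the compound named stk and in cells carrying hairpins against Soat1. They were taken from both expression tables by symbol: Rpl or Rps with a number, Rplp0 to Rplp2 and Rpsa, without pseudogene names ending in -ps and without the Rps6k kinases. A gene was kept where its mean reached 10 FPKM (sequenced fragments per transcript length and per depth of the library) in at least 1 group. Of 55335 genes, 85 matched the names and 81 were kept, 50 of the large and 31 of the small subunit. Of these, 80 are annotated as protein-coding and 1, Rpl6l, as a processed pseudogene. The genes were thus chosen by their FPKM level as well as by name, but 80 of the 81 reached the threshold in all 10 groups, and the exception is Rpl39l. Nearest to the threshold on the inside was Rpl22l1, with a highest group mean of 27.0 FPKM, and on the outside the processed pseudogene Rps12l1, with 6.30 FPKM. The other genes left out, Rpl10l, Rpl3l and Rps4l, had highest group means of 0 to 0.0835 FPKM.

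Ribosomal proteins coat the ribosomal RNA of the small and large subunits. Most of them are needed in equal numbers, and the cell makes their mRNAs at high and coordinated levels. Most of these mRNAs begin with a run of pyrimidines at the 5′ end, the TOP motif, through which the mTOR pathway controls their translation and storage, with the protein LARP1 bound to the motif. A few ribosomal proteins have a paralogue from a second gene, such as Rpl22l1 beside Rpl22 and Rpl39l beside Rpl39, which can take the place of the first in some tissues. Mammalian genomes also carry many processed pseudogenes of ribosomal protein genes, copied from their mRNAs.

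CT26 is a line from a colon carcinoma, and Hepa1-6 comes from liver. For the drug experiment, wild-type cells of each line were exposed for 48 hours to the solvent DMSO or to stk, a compound the labels give no structure for. In the knockdown experiment, untreated cells were collected 24 hours after seeding: CT26 lines with a luciferase hairpin (shLucif) or a Soat1 hairpin, of which there were 3 (sh1, sh2, sh3), and Hepa1-6 lines with the luciferase or a scrambled hairpin. The labels also list Soat1 hairpins in Hepa1-6, and 6 stk samples per line; those hairpins and the stk samples beyond 3 per line were not analysed here. All 10 groups used have 3 libraries, and the labels do not say whether these came from separate cultures, so the p-values measure the spread between libraries, which may be technical. Each experiment carries 1 batch date, and the experiments were tested separately.

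The sequencing depth of the libraries is unknown, because FPKM keep no read totals, and the library sums ran from 314827 to 335813 FPKM. Of 435 pairs of libraries, 0 held identical values. Soat1 stood at 19.7, 19.8 and 20.2 FPKM in CT26 with shLucif and between 2.52 and 3.55 FPKM in the 9 libraries with a Soat1 hairpin. The Hepa1-6 shLucif libraries stood apart from the other Hepa1-6 groups, and whether they hold Hepa1-6 cells alone was not tested. Soat1 stood at 12.7, 12.9 and 13.6 FPKM in them and at 0.0977 to 0.182 FPKM with the scrambled hairpin. Their mean profile over 13562 genes correlated at r = 0.917 with CT26 DMSO and at r = 0.901 with Hepa1-6 DMSO, where the scrambled hairpin gave 0.766 and 0.985. The summed level of 11 hepatocyte markers was 66.3 to 74.8 FPKM in them, against 380 to 418 with the scrambled hairpin and 5.08 to 5.86 in CT26 DMSO. Of the 11, 4 had a mean of at least 1 FPKM in them and 6 with the scrambled hairpin. The markers were not lower alike. Trf made up most of the sum, at a mean of 54.8 FPKM against 69.2 with the scrambled hairpin. Alb stood at 1.49 against 135.4 FPKM and Afp at 7.78 against 138.5 FPKM. CT26, labelled as colon carcinoma, held 25.6 to 30.0 FPKM of 10 intestinal epithelial markers with DMSO, of which 1, Krt20, reached 1 FPKM. Hepa1-6 with DMSO held 1446 to 1493 FPKM of the same markers, of which 6 reached 1 FPKM. The label of CT26 is not borne out by these markers, but they do not set colon apart from liver in these lines.

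The sequences shown first are those of Rpl39 and Rpl39l, because this pair differs most between the lines and the reads of one could be mistaken for the other. RPL39 is one of the smallest proteins of the large subunit and lines the tunnel through which the new protein leaves. Rpl39 lies on GRCm38 chromosome X, 37082520 to 37085402, on the minus strand. Rpl39l lies on chromosome 16, 10170226 to 10174911, on the plus strand, and its coding sequence fills part of 1 exon (10174310 to 10174465). Both coding sequences, taken from the GENCODE transcripts, have 156 bases and are 85.3% identical. Capitals mark the 23 bases that differ, and the longest run without a difference is 38 bases.
Rpl39: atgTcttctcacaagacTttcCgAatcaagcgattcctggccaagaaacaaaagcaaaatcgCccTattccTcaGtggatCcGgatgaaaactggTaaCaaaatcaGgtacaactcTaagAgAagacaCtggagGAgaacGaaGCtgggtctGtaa
Rpl39l: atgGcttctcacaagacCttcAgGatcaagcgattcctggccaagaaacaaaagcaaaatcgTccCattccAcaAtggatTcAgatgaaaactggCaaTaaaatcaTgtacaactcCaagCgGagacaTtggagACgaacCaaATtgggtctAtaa

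A second set shows the bases around the annotated start of 4 of the 14 genes called lower with stk in at least 1 line, 25 on each side, as the TOP motif would stand there. The windows are from RefSeq on GRCm38. Where a gene has several annotated starts, the start with the longest run was taken, for all genes alike. Capitals mark the longest run of C and T.
Rpl22l1: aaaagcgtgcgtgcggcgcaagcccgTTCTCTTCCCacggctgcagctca
Rpl39: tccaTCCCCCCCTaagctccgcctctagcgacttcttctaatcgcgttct
Rpl38: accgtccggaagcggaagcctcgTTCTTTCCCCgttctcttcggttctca
Rps18: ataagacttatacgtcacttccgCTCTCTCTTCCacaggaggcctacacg
In Rpl22l1, Rpl38 and Rps18 the run lies across the start or directly after it, and in Rpl39 it lies upstream of it. The windows are at chromosome 3, 28805483 to 28805532, chromosome X, 37085198 to 37085247, chromosome 11, 114668555 to 114668604, and chromosome 17, 33955641 to 33955690, in the order shown. The 4 genes shown are examples, picked by no fixed rule. Of the other called genes with a window, Rpl11, Rplp2, Rpl5 and Rpl10a had longest runs of 12, 10, 9 and 8 bases. In Rps21, Rps19 and Rpl37a the longest run had 7, 7 and 5 bases. A start window was found for 60 of the 81 genes. Their longest run had a median of 9 bases, against 5 in the windows of 27025 genes, and 55% of the 60 held a run of at least 8 bases against 22.3% of all genes.

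Motifs were also searched on both strands of the RefSeq promoters, 250 bases before to 50 after the start; none of the motifs contains another. ACTTCCG, the core bound by ETS factors such as GABP, was in 35% of the 60 promoters and in 7.20% of all 27025. CTCTTTCC, a pyrimidine run in itself, was in 16.7% against 3.57%. TATAAA, the TATA box, was in 11.7% against 15.7%, and Rpl22l1 and Rpl39 are among the 7 genes that hold it. These are matches of letters and not measured binding.

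With DMSO, the 81 genes spanned a wide range of levels per length of transcript. The median gene stood at 239 FPKM in CT26 and 248 FPKM in Hepa1-6. In CT26 the highest were Rplp1 (2236 ± 29.0 FPKM, mean ± SD, n = 3) and Rplp0 (1607 ± 28.4), which form the acidic stalk that recruits elongation factors, followed by Rpl4 (1057 ± 12.4). In Hepa1-6 the order of the first 2 was the reverse, with Rplp0 at 2055 ± 60.5 FPKM and Rplp1 at 1434 ± 37.5, and Rps2 came next (953 ± 17.0). The lowest in CT26 were Rpl35a (19.9 ± 0.975), Rpl22l1 (25.4 ± 1.65) and Rpl7l1 (35.4 ± 1.68), and the first 2 of these stood clear of the next gene by more than their SDs, whereas Rpl7l1 and Rpl22 (41.9 ± 4.94) differed by little more than the SD of Rpl22. In Hepa1-6, Rpl7l1 (40.5 ± 1.99) and Rpl22 (41.6 ± 10.6) did not differ beyond their spread, and Rpl22l1 (22.7 ± 1.11) lay below both. Leaving out Rpl39l, the highest gene exceeded the lowest by 112-fold in CT26 and 90.5-fold in Hepa1-6. Libraries of a group agreed closely: the median coefficient of variation over 80 genes was 2.15% in CT26 DMSO and 2.44% in Hepa1-6 DMSO, and it was wider with stk, at 4.09% and 6.50%.

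Rpl39l is the gene that separated the lines. It stood at 109, 107 and 103 FPKM in the 3 CT26 DMSO libraries and was listed at 0 in every Hepa1-6 library with DMSO, with stk or with the scrambled hairpin. All 18 CT26 libraries held between 87.5 and 123 FPKM. The Hepa1-6 shLucif libraries were the exception in their line, at 46.5, 45.0 and 43.7 FPKM, which lies between the CT26 level and 0. No fold is given against a group at 0, and because the gene was kept through its level in CT26 this difference is a description. Rpl39 itself was measured in both lines, at 131, 124 and 131 FPKM in CT26 DMSO and at 83.2, 82.0 and 83.0 in Hepa1-6 DMSO. It was thus higher in CT26, by 0.63 ± 0.0776 (SE) on the log2(FPKM + 1) scale (limma, Benjamini-Hochberg adjusted p = 1.81e-05). Over the table, 0 other genes held a near-identical copy of the Rpl39l coding sequence, and 9 held one of Rpl39.

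**Figure D1:**
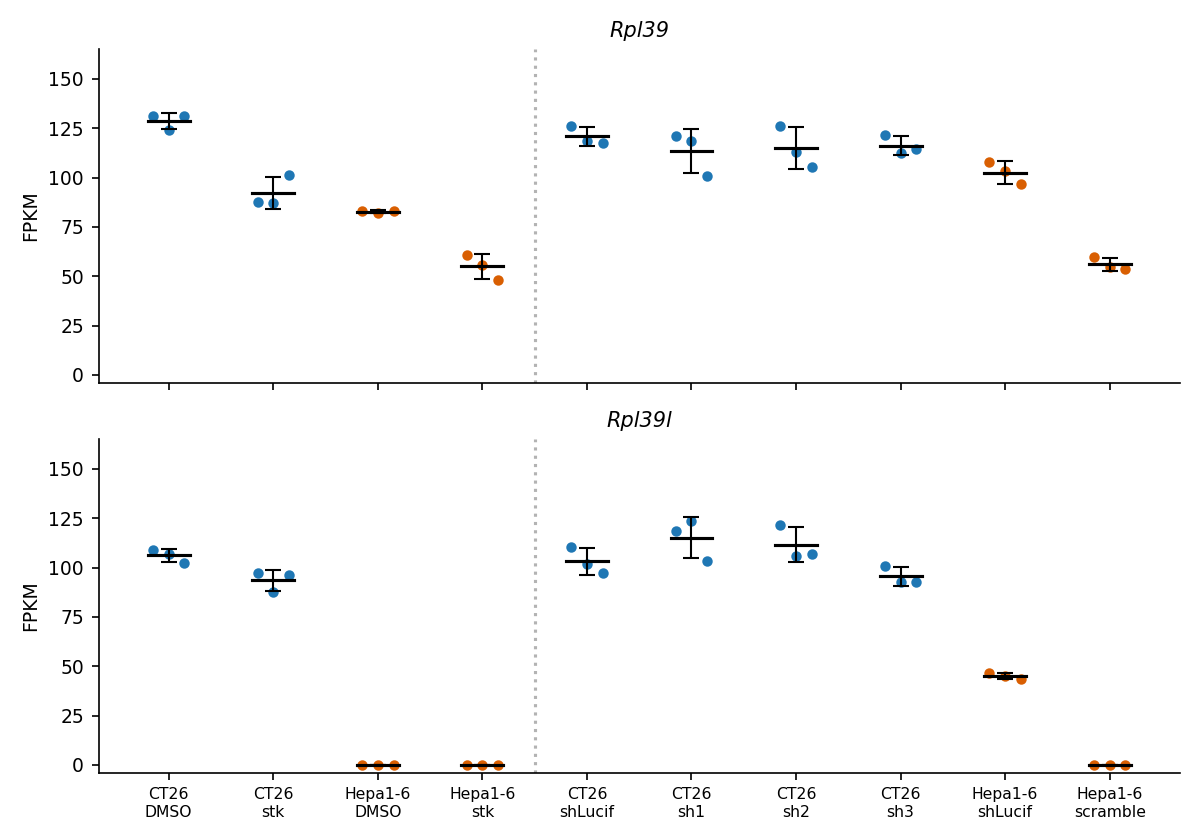
FPKM of Rpl39 (top) and Rpl39l (bottom) in each of the 30 libraries, by group, with CT26 in blue and Hepa1-6 in orange; points are libraries, bars the mean and SD, and the dotted line parts the drug from the knockdown experiment. Rpl39l stands at 87.5 to 123 FPKM in CT26, at 43.7 to 46.5 in Hepa1-6 with shLucif and at 0 in the other Hepa1-6 groups.

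The other genes kept much the same order in both lines. Across 80 genes, the log2 levels with DMSO correlated at r = 0.918 between CT26 and Hepa1-6, and at 0.799 with Rpl39l included, as a description over genes that are not independent. In the test of CT26 DMSO against Hepa1-6 DMSO, 62 of 81 genes were called at an adjusted p under 0.05, 24 higher and 38 lower in CT26, which is 76.5% of them where 76.8% of all 12822 genes tested were called. The number of calls therefore says nothing particular about the family, and the 24 include Rpl39l, whose difference is a description. The largest differences were in single genes. Rps2, of the mRNA entry site of the small subunit, stood at 307, 293 and 290 FPKM in CT26 and at 964, 934 and 962 in Hepa1-6 (-1.68 ± 0.0372 log2, adjusted p = 5.52e-12). Rpl29 stood at 57.6, 52.1 and 54.7 FPKM against 187, 185 and 185 (-1.74 ± 0.0531, adjusted p = 8.91e-11). Rpl30 stood at 62.0, 62.8 and 63.2 FPKM against 199, 197 and 206 (-1.66 ± 0.0519, adjusted p = 1.10e-10). In none of these did the libraries of the lines overlap.

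Rpl35a (-1.15), Rps14 (-0.99), Rpl21 (-0.92), Rplp2 (-0.71), Rpl37a (-0.69), Rpl17 (-0.62) and Rpl26 (-0.55) were also lower in CT26. Higher in CT26 were Rpl9 (1.07), Rpl7a (0.84), Rps29 (0.77), Rpl34 (0.68), Rpsa (0.68), Rplp1 (0.64) and Rps27l (0.57). Rps27l is the paralogue of Rps27 and a known p53 target. It stood at 176, 166 and 178 FPKM in CT26 and at 111, 116 and 123 in Hepa1-6, while Rps27 stood at 148, 142 and 141 against 155, 160 and 159 FPKM and was not called (-0.14, adjusted p = 0.0747). Rpl7 was lower in CT26 by -0.35 and its paralogue Rpl7l1, which works in ribosome assembly, by -0.19. Rpl22 was not called (0.04, adjusted p = 0.84), and Rpl22l1 passed narrowly (0.15, adjusted p = 0.04998, and not with a pseudocount of 0.1).

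Near-identical copies limit these levels. Of 80 genes with a coding sequence, 75 have at least 1 other gene in the table that holds at least 95% of the same bases over at least 90% of the coding length, with a median of 5 copies. How the authors divided reads between copies is not given in the sources used here. Rpl21 has 56 such copies, Rpl7a 31, Rpl29 25, Rps2 22, Rpl17 20, Rpl35a 14 and Rpl30 12, whereas Rps14 and Rplp1 have 2 and 3 and Rps27l and Rpl39l have 0. The levels of genes with many copies are uncertain, and the part of the copies in the line differences was not tested.

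**Figure D2:**
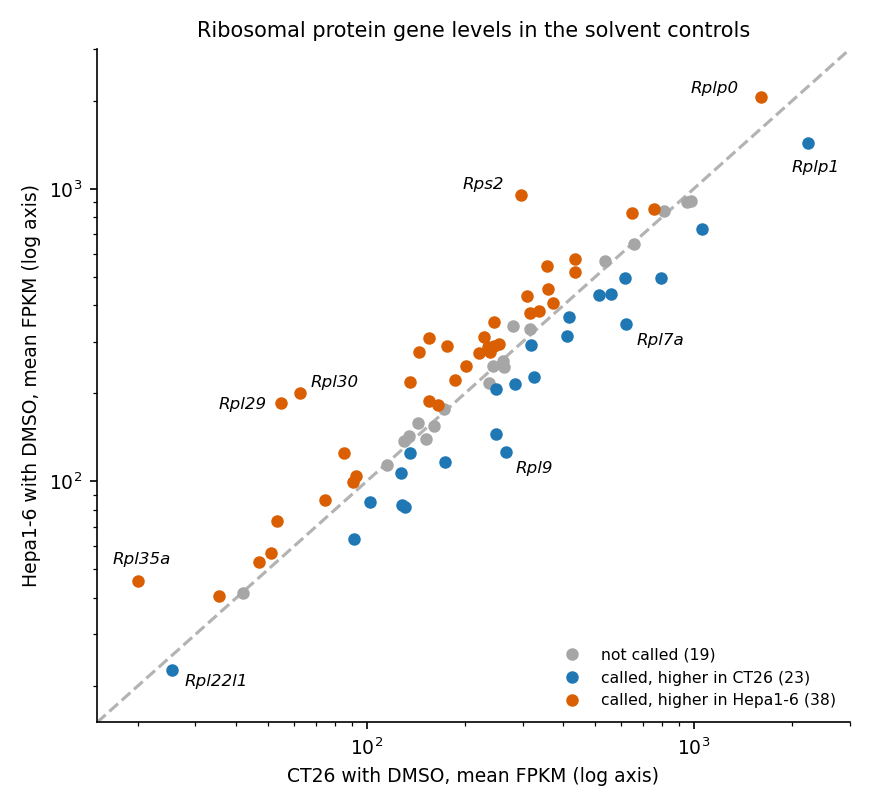
Mean FPKM of 80 ribosomal protein genes (Rpl39l is left out, being listed at 0 in Hepa1-6) in CT26 and Hepa1-6 with DMSO, on log axes; each point is a gene, coloured by the limma call, and the dashed line marks equal levels. Most genes lie near the line, and Rps2, Rpl29, Rpl30 and Rpl35a lie far above it.

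The first comparison with stk asks what the compound did to these mRNAs in CT26. The family fell slightly: its summed FPKM made up 7.99%, 7.91% and 7.85% of the library total with DMSO and 7.57%, 7.33% and 7.79% with stk, so the groups did not overlap. FPKM are relative to the whole library, and in bulk RNA fewer cells with an mRNA and less of it per cell cannot be told apart. Of the 81 genes, 70 had a lower mean with stk, and the median difference was -0.10 on the log2(FPKM + 1) scale, against -0.01 over all genes tested. It was -0.07 without the second stk library and -0.14 without the third. In 44 of 81 genes all 3 stk libraries lay below all 3 DMSO libraries, a pattern seen in 12.0% of all 11358 genes tested, and in 1 gene all lay above, against 9.42%. At a limma adjusted p under 0.05, 9 genes were called lower and 0 higher, where 0.616% of all genes were called lower and 0.748% in either direction. An unadjusted p under 0.05 was reached by 40 of the 81 genes and by 1656 of all 11358. The data thus hold a small shift over much of the family and a few genes past the test.

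**Figure D3:**
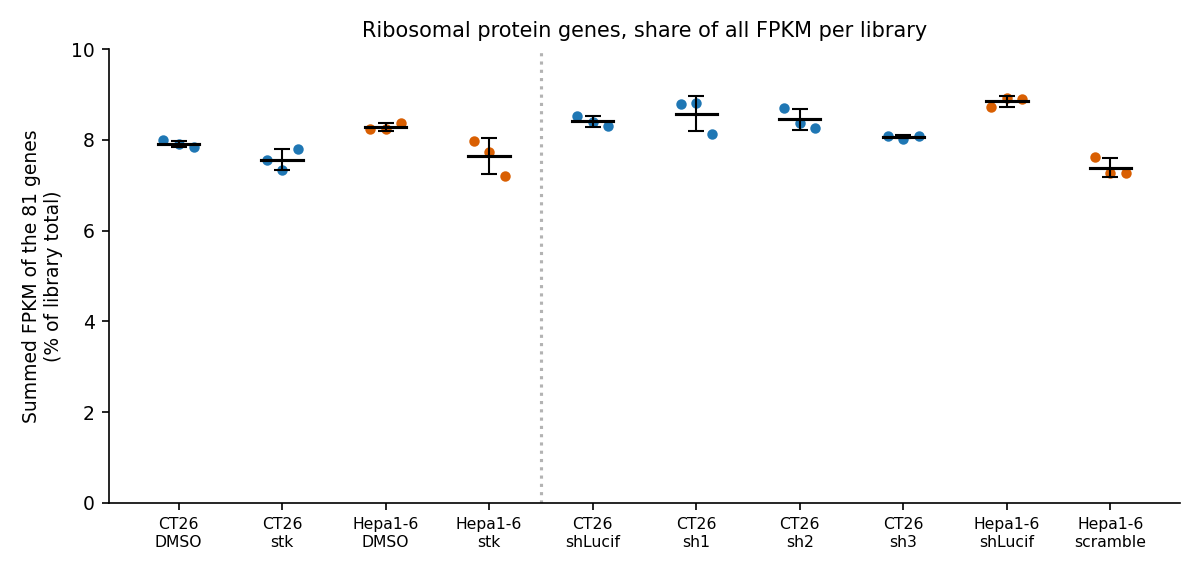
Summed FPKM of the 81 genes as a percentage of the library total, per library and group; points are libraries, bars the mean and SD (n = 3), and the dotted line parts the experiments. The share is lower with stk than with DMSO in both lines, lower with sh3 than with shLucif, and spans 7.26% to 7.62% with the scrambled hairpin against 8.72% to 8.93% in Hepa1-6 with shLucif.

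Rpl22l1, the paralogue of Rpl22, fell most in CT26. It stood at 26.7, 23.6 and 25.9 FPKM with DMSO and at 14.5, 16.1 and 16.3 with stk, so that the highest stk library was well below the lowest DMSO library. The difference was -0.67 ± 0.0652 (adjusted p = 0.019). Rpl22 moved less and was not called. Its values were 46.2, 36.5 and 43.1 FPKM with DMSO and 38.5, 34.2 and 33.3 with stk, which overlap (-0.24, adjusted p = 0.324). Rpl39 fell from 131, 124 and 131 to 87.8, 87.0 and 101 FPKM (-0.48 ± 0.0635, adjusted p = 0.0313). Its paralogue Rpl39l went from 109, 107 and 103 to 97.0, 87.5 and 96.4 FPKM, without overlap, and did not pass the test (-0.18, adjusted p = 0.183).

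The other genes called in CT26 belong to both subunits. Rps21 (-0.40) and Rps29 (-0.33), the latter with a zinc finger in the head of the small subunit, fell, as did Rps19 (-0.34), the gene most often mutated in Diamond-Blackfan anaemia. Rps21 had 325, 302 and 322 FPKM with DMSO and 242, 224 and 254 with stk. Rpl38 (-0.39), known for its part in the translation of Hox mRNAs, stood at 223, 215 and 224 FPKM and then at 160, 169 and 177. Rpl37a (-0.34), the stalk gene Rplp2 (-0.23) and the processed pseudogene Rpl6l (-0.37) complete the 9. Rpl37a was called in 0 of the 6 fits that leave out 1 library. The stk and DMSO libraries of Rpl37a, Rplp2 and Rpl6l did not overlap. Rps28 had a large difference (-0.47) that was not called. Among the genes that were not lower, Rpl27 had the highest value (0.15).

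In Hepa1-6 the family was lower with stk as well. The family made up 8.24%, 8.24% and 8.38% of the library total with DMSO and 7.98%, 7.74% and 7.21% with stk. Of 80 genes tested, 78 had a lower mean with stk, and the median difference was -0.17, against 0.00 over all genes. All stk libraries lay below all DMSO libraries in 58 of the 80, against 14.6% of all 11426 genes tested, and above them in 0, against 16.2%. Calls by limma were made in 7 genes, 7 lower and 0 higher, where 0.849% of all genes were called lower and 1.53% in either direction. An unadjusted p under 0.05 was reached by 54 of the 80 genes and by 2714 of all 11426. The third stk library had the lowest share, and without it the median difference was -0.11 and 3 genes were called.

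Rpl22l1 was again the gene that fell most, from 21.6, 22.7 and 23.9 FPKM with DMSO to 14.0, 13.6 and 12.3 with stk (-0.73 ± 0.0609, adjusted p = 0.017). Rpl39 fell from 83.2, 82.0 and 83.0 to 60.7, 55.9 and 48.3 FPKM (-0.59 ± 0.0785, adjusted p = 0.042). The third stk library was the lowest for both. Rpl11 and Rpl5, which together with the 5S RNA can bind and inhibit MDM2, fell by 0.39 and 0.25 on the log2 scale. Rpl11 stood at 123, 127 and 126 FPKM with DMSO and at 91.7, 92.3 and 102 with stk. Rps18 (-0.35), Rpl10a (-0.34) and Rps27a (-0.31), which encodes ubiquitin fused to a ribosomal protein, were the other genes called. Of the 7, Rps18, Rpl10a, Rps27a and Rpl5 were called in 0 of the 6 fits that leave out 1 library. Rpl22 was variable, with 39.7, 32.1 and 52.9 FPKM against 35.0, 31.5 and 29.8, and was not called (-0.34, adjusted p = 0.279).

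Of the 80 genes tested in both lines, 69 had a lower mean with stk in both, 2 a higher mean in both, and 36 had all stk libraries below all DMSO libraries in both. Rpl22l1 and Rpl39 were called in both, and 14 genes in at least 1 line. Genes called in 1 line were not shown to differ between the lines. In the test of the difference between the responses, 0 of 81 genes were called by limma, where 0.304% of all 12822 genes were called. An unadjusted p under 0.05 was reached by 11 of the 81 and by 1780 of the 12822, a like share. With quantile normalization the same test called 1 gene. The median of this difference, CT26 minus Hepa1-6, was 0.06. For Rpl22l1 it was 0.06 ± 0.0925 and for Rpl39 0.10 ± 0.110.

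**Figure D4:**
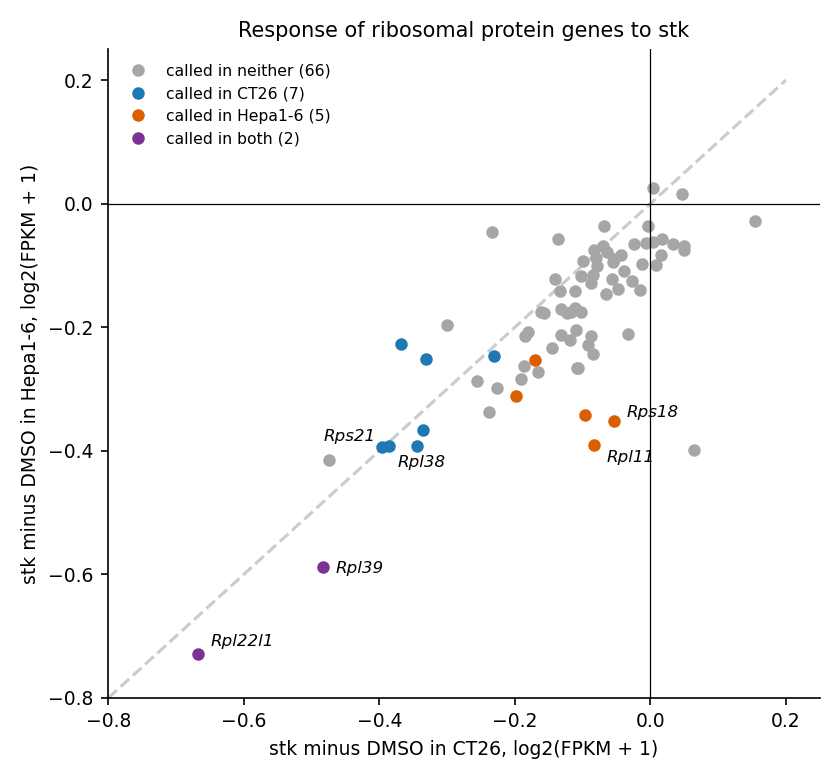
Difference between stk and DMSO in log2(FPKM + 1) for 80 genes, in CT26 (horizontal) and Hepa1-6 (vertical); each point is a gene, coloured by the line in which limma called it, and the dashed line marks equal responses. Most points lie below and to the left of 0, with Rpl22l1 and Rpl39 farthest out in both lines.

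The size of these shifts depended on the scaling. With quantile normalization, which gives all libraries 1 distribution, the median difference of the family was -0.04 in CT26 and -0.10 in Hepa1-6, and with the trend over transcript length removed it was -0.06 and -0.10. The calls depended on single libraries: in CT26 leaving out 1 library gave 0 calls in 5 of 6 fits and 12 in the other, without the third stk library, and in Hepa1-6 it gave 0 to 6. The shift varied with transcript length. The 14 genes with a median transcript length under 500 bases had a median difference of -0.17 in CT26 and -0.24 in Hepa1-6, against -0.04 and -0.10 in the 13 genes from 1000 to under 2000 bases and -0.17 and -0.30 in the 2 longer genes. Of the 14 genes under 500 bases, 4 were called lower in CT26 and 0 in Hepa1-6. Other protein-coding genes under 500 bases had medians of -0.01 and -0.04, with 2 and 4 of 149 and 158 called lower. What part length has in the shift was not tested. Across the family, the correlation of the difference with log2 length was r = 0.28 in CT26 and 0.20 in Hepa1-6. Of 258 near-identical copies tested in CT26, 28 were called lower and 2 higher, with a median of -0.23, where 0.616% of all genes were called lower. Of 253 in Hepa1-6, 26 were called lower and 0 higher, with a median of -0.26, where 0.849% of all genes were called lower. The division of reads between copies is unknown, so the values of the copies may hold reads of the family and are not independent of it. The genes without a copy, 5 tested in CT26 and 4 in Hepa1-6, were all lower in mean, with medians of -0.12 and -0.20.

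Genes that work with the ribosomal proteins were read against the share of all genes called with stk, 0.748% in CT26 and 1.53% in Hepa1-6. Counts at an unadjusted p under 0.05 are in brackets. Over all genes these were 1656 of 11358 in CT26 and 2714 of 11426 in Hepa1-6. Of 5 ribosomal protein genes whose symbols fall outside the rule (such as Fau, Rpl36al and Rack1), all 5 had lower means in both lines and 0 were called by limma (2 and 3 at an unadjusted p under 0.05), with medians of -0.14 and -0.14. Among 40 ribosome assembly factors, 31 had a lower mean in CT26 and 29 in Hepa1-6, with medians of -0.04 and -0.06 and 0 called (10 and 11 at an unadjusted p under 0.05). Of 78 mitochondrial ribosomal protein genes, 56 and 55 had a lower mean, with medians of -0.06 in each line and 0 called (12 and 16). Of 14 genes of RNA polymerase I and its factors 0 were called in either line (1 and 7), with 9 and 5 lower in mean and medians of -0.04 and 0.06. Of 16 translation factors with TOP mRNAs 0 were called (5 and 7), with 10 and 13 lower in mean and medians of -0.02 and -0.05. Many host genes of small nucleolar RNAs carry a TOP motif but make little protein. All 10 tested had a lower mean in CT26 and 8 in Hepa1-6, with medians of -0.19 in each, and 1 was called in each line, Snhg8 in CT26 (-0.34) and Zfas1 in Hepa1-6 (-0.45). Of 15 regulators of TOP mRNAs and growth, 3 and 4 had a lower mean, with medians of 0.05 and 0.09, and 1 was called: Larp1, whose protein binds the TOP motif, was higher in Hepa1-6 (0.20 ± 0.0344, adjusted p = 0.0488). Larp1 passed narrowly, and the calls of genes in these lists were not repeated with other settings of the processing.

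In CT26 with Soat1 hairpins the family moved little with sh1 and sh2 and was lower with sh3. All 3 hairpins are compared with the same shLucif libraries, so their differences from shLucif are not independent. The family made up 8.54%, 8.40% and 8.30% of the library total with shLucif, 8.80%, 8.81% and 8.14% with sh1 and 8.71%, 8.38% and 8.27% with sh2, all overlapping. With sh3 it made up 8.09%, 8.03% and 8.09%, below every shLucif library. For the mean of the hairpins, 18 of 81 genes were called, 13 lower and 5 higher, or 22.2% of the family where 43.1% of all 11832 genes tested were called. The median difference was -0.05, against 0.01 over all genes.

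By hairpin, sh1 gave 8 calls, where 37.8% of all genes were called. They were 4 lower and 4 higher, against 18.7% and 19.1% of all genes. With sh2 there were 7 (38.9% of all genes), 2 lower and 5 higher, against 20.0% and 18.9%. With sh3 there were 36 (52.5% of all genes), 29 lower and 7 higher, against 21.6% and 30.9%. Under quantile normalization these splits were 10 and 6 with sh1, 11 and 3 with sh2 and 27 and 12 with sh3, so the balance with sh1 and sh2 depended on the scaling. Medians were 0.00, 0.00 and -0.08. All libraries lay below all shLucif libraries in 10 genes with sh1, 4 with sh2 and 41 with sh3, against 25.1%, 27.0% and 26.0% of all genes.

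Rpl19 of the large subunit and Rps15, whose protein lies near the decoding site, were called higher with each hairpin. Rpl19 stood at 552, 571 and 544 FPKM with shLucif, 692, 665 and 624 with sh1, 672, 677 and 639 with sh2 and 638, 625 and 623 with sh3. Every hairpin library was above every shLucif library, and the mean of the hairpins was higher by 0.23 ± 0.0335 (adjusted p = 0.000285). Rps15 stood at 722 to 726 FPKM with shLucif and at 772 to 885 over the hairpin libraries, a difference of 0.21 for their mean. Rpl37 (0.18), Rps26 (0.15) and Rps4x (0.11) complete the 5 genes called higher for the mean of the hairpins. Lower calls were more frequent, at 13 genes, and most of these are not named for this comparison. Rpl13a was lower (-0.24), with 449.5, 355 and 360.1 FPKM with shLucif and 312 to 354 over the hairpin libraries, and the first shLucif library stood above the rest. Rpl22l1 was lower for the mean of the hairpins (-0.23 ± 0.0618, adjusted p = 0.0104), and with sh1 and sh3 alone, while sh2 did not pass (-0.15, adjusted p = 0.132). Rpl39 was not called with any hairpin, with differences of -0.09, -0.08 and -0.06, and neither was Rpl39l.

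With sh3 the largest falls were in the large subunit. Rpl7l1 stood at 60.3, 53.3 and 51.8 FPKM with shLucif and at 39.6, 38.0 and 41.9 with sh3 (-0.46 ± 0.0605, adjusted p = 8.28e-05). Rplp1 fell from 2237, 2149 and 2086 to 1647, 1552 and 1590 FPKM (-0.43 ± 0.0623, adjusted p = 0.000151). Rpl12, which sits at the base of the stalk that Rplp1 belongs to, fell from 323, 311 and 311 to 231, 236 and 240 FPKM (-0.42 ± 0.0396, adjusted p = 7.64e-06). Rpl10a (-0.34), Rpl22l1 (-0.27), Rpl5 (-0.26), Rpl13 (-0.25) and Rpl6 (-0.25) were lower too. Rps28 (0.28), Rpl37 (0.25), Rps4x (0.23), Rps15 (0.23), Rpsa (0.19), Rpl19 (0.18) and Rpl7 (0.13) were higher. Rpl7 and its paralogue Rpl7l1 thus moved in opposite directions with sh3, and both also differed from sh1 and sh2 averaged (0.13 and -0.48).

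Tested against the mean of sh1 and sh2, 38 genes differed with sh3, 31 lower and 7 higher, or 46.9% where 60.2% of all genes were called. Under quantile normalization the split was 23 and 17. Rpl7l1 stood at 55.0 to 55.5 FPKM with sh1 and 53.7 to 60.0 with sh2, well above the sh3 libraries, and Rplp1 and Rpl12 were lower by 0.42 and 0.38 on the log2 scale. The ribosome assembly factors, which build the subunits in the nucleolus, were lower with the hairpins. Of 40, 23 were called lower and 3 higher with the mean of the hairpins, with a median of -0.15 and with Nvl (-0.41), Rrp12 (-0.36) and Nop56 (-0.33) leading, where 19.8% of all genes were called lower. With sh3 alone 23 were lower and 3 higher, with a median of -0.27, led by Ebna1bp2 (-0.63), Rrp12 (-0.55) and Nob1 (-0.55), where 21.6% of all genes were called lower. Mitochondrial ribosomal protein genes had 36 lower and 8 higher of 78 with sh3, where 21.6% and 30.9% of all genes were called lower and higher. With sh1 they had 13 lower and 8 higher, against 18.7% and 19.1% of all genes. With sh2 they had 14 lower and 7 higher, against 20.0% and 18.9%. Of 16 translation factors with TOP mRNAs, 3 were called lower and 8 higher with sh3, where 21.6% and 30.9% of all genes were, with Eif3l (0.51) and Eef1b2 (0.35) highest. Of 15 regulators of TOP mRNAs and growth, 6 were called lower and 2 higher, with a lower mean in 12 and a median of -0.13. Eif4ebp2, 1 of the 2 that were higher, an inhibitor of translation initiation that mTOR inactivates, differed by 1.02 ± 0.0492 (adjusted p = 7.60e-08).

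**Figure D5:**
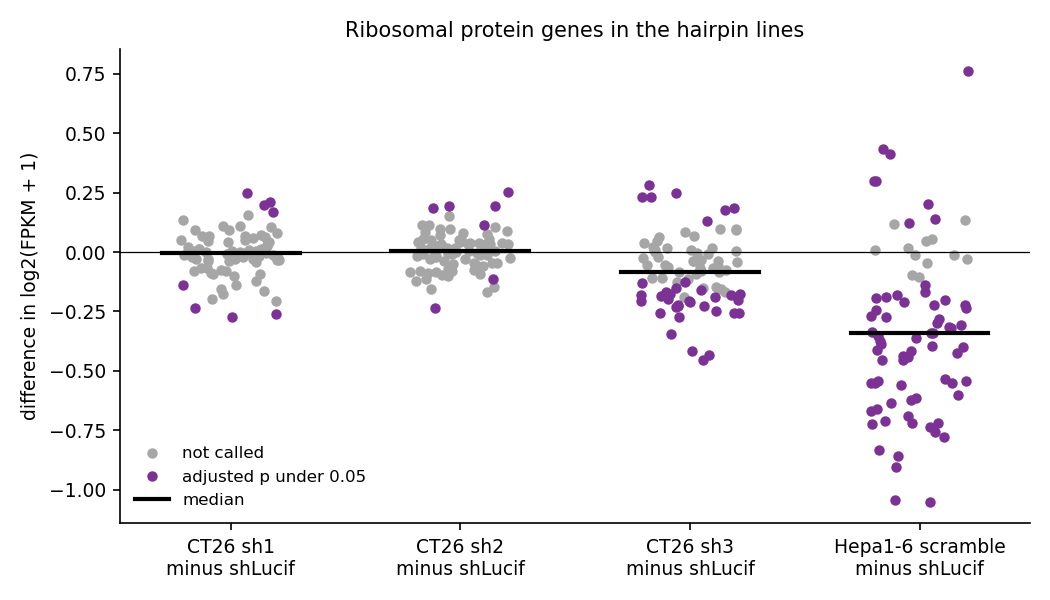
Difference in log2(FPKM + 1) of 81 genes for each Soat1 hairpin against shLucif in CT26, which share the same 3 control libraries, and of 80 genes for the scrambled hairpin against shLucif in Hepa1-6 (Rpl39l is left out). Each point is a gene, coloured by the limma call, and the bar is the median; the medians of sh1 and sh2 are at 0, that of sh3 lies at -0.08, and the scrambled hairpin lies lowest.

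The Hepa1-6 hairpins compared here are both controls, and the family was lower with the scrambled hairpin than with shLucif. It made up 7.62%, 7.27% and 7.26% of the library total, against 8.72%, 8.93% and 8.90% with shLucif. Of 81 genes, 61 were called lower and 8 higher, or 75.3% and 9.88%, where 36.8% of all 12055 genes tested were called lower, 31.4% higher and 68.2% in all, and the median was -0.34 against -0.04 over all genes. All scrambled libraries lay below all shLucif libraries in 62 genes, against 39.5% of all, and above them in 9, against 33.7%. Both the 61 and the 62 include Rpl39l, which is listed at 0 with the scrambled hairpin. This comparison rests wholly on the shLucif libraries that stood apart from the rest of their line, and the groups hold different levels of hepatocyte markers. Soat1, which neither control hairpin is directed at, differed as well, as given above. What part a difference in cells has in this comparison was not tested.

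Rps29 stood at 206, 181 and 188 FPKM with shLucif and at 96.4, 89.4 and 90.0 with the scrambled hairpin (-1.05 ± 0.0565, adjusted p = 5.43e-06). Rpl9 fell by a like amount, from 192, 205 and 208 to 99.9, 94.5 and 97.3 FPKM (-1.04 ± 0.0422, adjusted p = 1.40e-06). Rps27l (-0.90), Rpl39 (-0.86), Rpl7a (-0.83), Rpl35 (-0.78), Rps19 (-0.76) and Rpsa (-0.74) were also lower. Rpl30 was higher, with 95.4, 98.0 and 98.9 FPKM with shLucif and 170, 164 and 164 with the scrambled hairpin (0.76 ± 0.0317, adjusted p = 1.61e-06), as were Rps14 (0.43), Rps2 (0.41), Rpl19 (0.30), Rpl41 (0.30), Rpl17 (0.20), Rplp2 (0.14) and Rpl26 (0.12). Of 35 genes whose mean with CT26 shLucif and with the Hepa1-6 scrambled hairpin lay at least 0.5 apart on the log2(FPKM + 1) scale, 30 had the Hepa1-6 shLucif mean between them, or 85.7%, against 78.4% of 6485 such genes over the whole table. This is a description of where these libraries lie, with a gap of 0.5 chosen after the values were seen.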

How the data were processed

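RNA from CT26 and Hepa1-6 cells was sequenced in paired reads and trimmed with Skewer, per the labels' protocols. A SMARTer kit was used for some libraries, which the labels do not single out. The authors deposited FPKM in 1 table per experiment. The submitters' processing notes name GRCm38, HISAT2, STAR, DESeq2 and edgeR, and which of these made the FPKM is not given in the sources used here. Of 45 labelled samples, 30 match a column by name and form 10 groups of 3, and 21 columns match no label and were not used. The names of the tables are swapped between the experiments, so columns were assigned by their own names. The columns of sh1 match their group and no single sample.

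The deposited FPKM were put on a log2 scale after adding 1, which understates the change of low genes, and fitted with limma (version 3.58.1, R 4.3.3) using its trend option. Each line of each experiment had 1 model, and contrasts between the lines used 1 model of all drug libraries. A gene entered the two-sided test when 3 libraries or more of its model reached 1 FPKM, and a call means an adjusted p under 0.05 by Benjamini-Hochberg over every gene tested. The scripts were tested on simulated data. An exact permutation test of 3 against 3 cannot give a p under 0.1 and was not used. Coding sequences of the principal isoforms were compared with GENCODE transcripts with blastn 2.17.0, and 55154 of 55335 gene IDs matched the annotation.

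The genes named are, per comparison, up to 10 called in each direction with the largest differences, the paralogue pairs, the 3 highest and 3 lowest per line and up to 3 called genes per gene list. Some genes that meet this rule are not reported here. Rps28 and Rpl27 with stk were named after their values were seen. The genes, lists and rules were chosen with earlier results of these data known. The alternatives were another pseudocount, other filters, quantile normalization, a replicate block, removal of the length trend, protein-coding genes only, 1 model per table and leaving out each library.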

Additional observations from a re-analysis of the deposited data

Results flagged for a closer look

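Levels of some ribosomal protein genes in CT26 differed between the hairpins against Soat1. In the test that set sh3 against sh1 and sh2 averaged, which does not use the shLucif libraries, 38 of 81 genes, or 46.9%, differed at a limma adjusted p under 0.05, where 60.2% of all genes did, so the share is below that of genes at large. Soat1 itself stood at 2.52, 2.54 and 2.71 FPKM with sh3, below the 3.23 to 3.55 FPKM of sh1 and sh2.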

How the results depend on the processing

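Counts of called ribosomal protein genes depended on the processing most in the stk comparisons. In CT26 (9 as reported) there were 0 without a filter on low values, 14 with a minimum of 5 FPKM, 5 without the length trend and 2 among protein-coding genes. In Hepa1-6 (7) these were 0, 20, 4 and 4, with 13 under quantile normalization and 32 with both lines in 1 model. The difference between the responses gave 1 call under quantile normalization (0 as reported). Without a filter, the mean of the hairpins gave 10 (18), sh1 gave 5 (8) and sh2 gave 2 (7). Quantile normalization gave 16 with sh1 and 14 with sh2, and removing the length trend 13 and 11.

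Leaving out 1 library gave 0 to 12 calls with stk in CT26, 0 (without the second DMSO or the second stk library) to 6 in Hepa1-6 and 0 for the difference between them. It gave 7 (without the first shLucif library) to 23 for the mean of the hairpins, 5 to 11 for sh1, 3 (without the second sh2 library) to 10 for sh2, 27 to 31 for sh3, 27 to 49 for sh3 against sh1 and sh2, 65 to 68 for the scrambled hairpin and 55 to 58 between the lines. Rpl22l1 kept its call in 1 of 6 such fits in CT26 and 4 of 6 in Hepa1-6, and Rpl39 in 1 and 2, with no change of direction.

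Samples with the same replicate number did not deviate together (correlations from -0.23 to 0.15). With the number as a replicate block there were 0 calls with stk in each line and 13 with sh2, and no block could be made for sh1. Over 2142 repeats of single genes under these alternatives, 283 lost their call and 4 gained one. A change of direction in a gene called as reported or in the repeat occurred in 0. Changes of direction in genes called in neither were not counted. Why the counts moved was not tested. The unknown depth leaves counting error unmeasured.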
